A study of Schizosaccharomyces pombe with 4 samples.

Results

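The *Schizosaccharomyces pombe* annotation holds long noncoding (lnc)RNAs that lie between protein-coding genes and that the XUT catalogue, the list of lncRNAs stabilized when the cytoplasmic exonuclease Exo2 is lost, does not cover. They were taken as the annotated ncRNA rows with 0 nt of overlap with a XUT on their own strand, with under 50 nt of overlap with a protein-coding gene on the opposite strand, and with a mean WT density under 2 tag/nt (reads per nucleotide of the feature, after the authors' scaling). This gave 436 of the 1522 annotated ncRNAs, and of 9139 features in the table, with 179 on chromosome I, 170 on chromosome II and 87 on chromosome III. XUTs are defined by a higher level in *exo2*Δ than in WT, so these lncRNAs were selected on the contrast described below and on their WT level. Their log2 ratios and the counts past the threshold are therefore descriptions, with no test of the set.

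Total RNA from which rRNA had been depleted was sequenced from 2 biological replicates of YAM2394 (mating type h+, with the alleles *leu1-32*, *ura4-D18* and *ade6-M210*), called WT, and 2 of YAM2397, which carries the same alleles plus *exo2Δ::kanMX4*. Both strains were purchased from Bioneer, and the paper states that they were checked by genomic PCR and by northern blot. Each genotype is represented by 1 strain, and cells of both were taken in mid-log growth at 32°C in the rich medium YES. The libraries held between 46964618 and 51019820 reads on features. The level of *exo2* itself was not lower in the second strain, with densities of 0.488 and 0.458 tag/nt in the WT pair and 0.663 and 0.636 tag/nt in the second pair, so that the latter are called the *exo2*Δ-labelled libraries. The *ura4* gene, absent from both strains by the ura4-D18 allele, had between 2 and 14 reads per library.

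Exo2 is the fission yeast form of Xrn1, an enzyme that degrades decapped RNA in the cytoplasm from its 5′ end. A lncRNA can instead be removed in the nucleus by the exosome, of which Rrp6 is a subunit. Some are taken there by Mmi1, a protein that binds meiotic RNAs carrying repeats of the sequence TNAAAC (written as DNA, N being any base). Other intergenic ncRNAs come from the centromere repeats, whose transcripts feed RNA interference and heterochromatin, or from the regions just before and after genes.

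Among the lncRNAs with a gene name, 4 belong to the Mmi1 pathway. *sme2* makes meiRNA, the RNA that holds Mmi1 at its own locus in meiosis, *nam1* is annotated as a repressor of the *byr2* gene, and *nam5* and *nam6* lie in centromeres I and II. For each, the 30 bases with the most TNAAAC in the RefSeq locus (ASM294v3, 5′ to 3′ on the strand of the RNA, TNAAAC in capitals) are shown because they carry the motif for which these RNAs are known.
sme2: TGAAACaatatTAAAACgtattccTGAAAC
nam1: gcgcaatgcattctttTGAAACttTTAAAC
nam5: ggactaataattTAAAACTAAAACTAAAAC
nam6: ggactaataattTAAAACTAAAACTAAAAC
These lie at chrII:339356-339385 (− strand), chrII:1743074-1743103 (− strand), chrI:3753806-3753835 (+ strand) and chrII:1609769-1609798 (+ strand), and each of the 4 loci holds 9 TNAAAC. *nam5* and *nam6* share their 30 bases and are 95.7% identical over the whole locus, 1082 and 1088 nt long, and no stretch of 50 nt in either is found only there in the genome.

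A further set shows the annotated 5′ end, the end from which Exo2 degrades, of the lncRNAs whose levels differed most between the strains among those that overlap no other feature on their strand and had a mean of at least 50 reads. The first 30 bases are given for the 4 with the largest ratio, SPNCRNA.253, SPNCRNA.1600, SPNCRNA.218 and SPNCRNA.995, and then for the 4 with the smallest, SPNCRNA.767, SPNCRNA.1130, SPNCRNA.1562 and SPNCRNA.1666. None of these stretches holds TNAAAC or the poly(A) signal AATAAA, so no base is in capitals.
SPNCRNA.253: tctttttgaaaaccccagcaggcctacgtg
SPNCRNA.1600: acaatcatcacttatgttgctgtgagctcg
SPNCRNA.218: tatttggaaaatacttgtaattaatttaaa
SPNCRNA.995: agaacatatacggaatagtgaagcatacca
SPNCRNA.767: tcatagccgagtagtcagtgtgataaacgt
SPNCRNA.1130: ctttttacagcaaccataactcggtttctt
SPNCRNA.1562: ctcatagtctgactgccaaagcaaaaaaaa
SPNCRNA.1666: tctagatatactgaatttctctctactgct

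These lncRNAs were faint. Of the 436, 30 had no read in any library, 78 had between 1 and 9 reads over the 4 libraries, 151 had 10 or more but under 100, 130 had 100 or more but under 1000, and 47 had at least 1000. Their median density was 0.0206 and 0.0237 tag/nt in the WT libraries and 0.0282 and 0.0294 tag/nt in the *exo2*Δ-labelled libraries, against medians for mRNAs of 0.425 and 0.438, and 0.923 and 0.974 tag/nt. Together they took 0.0846% and 0.0839% of the reads on features in the WT pair and 0.109% and 0.113% in the *exo2*Δ-labelled pair. The 2 *exo2*Δ-labelled libraries were above both WT libraries in the summed density of the lncRNAs, with 78.3 and 80.5 tag/nt against 40.5 and 41.7 tag/nt. The ratio of the summed means was 1.93, against 1.76 over all features. It was 2.37 for lncRNAs that overlap a gene on their strand, 0.94 for those that overlap other features only, and 1.53 for those that overlap none. The selection capped the WT density and not that of the *exo2*Δ-labelled libraries, so nothing is read from these sums. In a bulk extract, RNA made at a lower level in each cell and RNA made in fewer cells cannot be told apart.

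**Figure D1:**
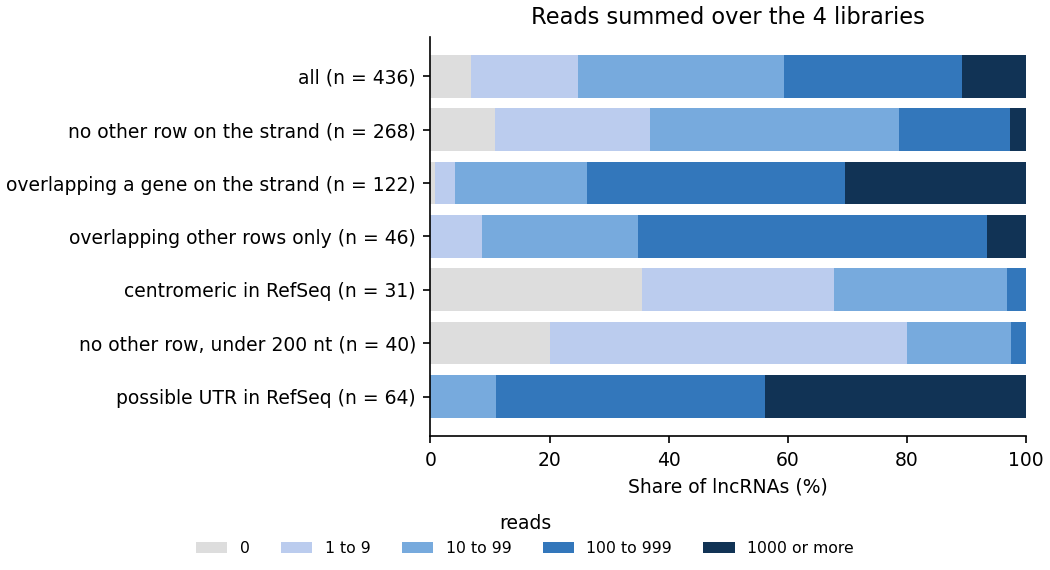
Share of lncRNAs (%) in each class of reads summed over the 4 libraries, for all 436 and for subsets by overlap with other features, RefSeq description and length. Of the 268 that overlap no other feature on their strand, 99 had under 10 reads, and of the 122 that overlap a gene on their strand, 5 had.

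Many of the lncRNAs overlapped other features. An overlap on the same strand can put the same reads in the density of both, which was not tested, and 168 of the 436 had one, 122 of them with a protein-coding gene and 46 with other features only. The other 268, called stand-alone below, received 8503 and 9061 reads in the WT pair and 10336 and 11005 in the *exo2*Δ-labelled libraries, out of totals between 39379 and 57561. Their median density was 0.00754 and 0.00741 tag/nt in WT, against 0.118 and 0.119 tag/nt for the 122 that overlap a gene. Their median length was 533 nt, against 794 nt for the 122. Opposite strands were not empty either, since 78 of the 436 lay opposite a XUT, 136 opposite another annotated ncRNA, and 19 over at most 48 nt of a gene. No feature on either strand overlapped 173 of them.

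The faintest lncRNAs included most of the centromeric ones. RefSeq describes 31 of the 436 as centromeric or centromere-proximal, and 21 of these had under 10 reads in all, 11 of them none. Over the 31, the reads came to 102 and 105 in the WT pair and 99 and 126 in the *exo2*Δ-labelled libraries. *IRC1-L* (SPNCRNA.84, chrI:3753160-3753692) and *IRC1-R* (SPNCRNA.95, chrI:3789400-3789948), transcripts of the inverted repeats that flank centromere I, had at most 5 reads in any library and are 97.1% identical. *nam5* had 9 and 8 reads in the WT pair and 5 and 20 in the *exo2*Δ-labelled pair, and *nam6* had 2 and 3, and 6 and 5. The WT libraries lay between the *exo2*Δ-labelled pair for *nam5* and below it for *nam6*. Sequence shared between loci went with a part of these low values. Of the lncRNAs whose coordinates are the same in the deposited table and in RefSeq, 14 of 95 (14.7%) with under 10 reads had no stretch of 50 nt that occurs once in the genome, against 6 of 292 (2.05%) with more, and all 20 were stand-alone, 17 of them centromeric. Every stretch of 50 nt occurred once in 71 of the 95 and in 279 of the 292. The paper computed its densities of mRNAs, sn(o)RNAs and XUTs from uniquely mapped reads. If the same holds here, loci without unique sequence can receive few reads whatever their level, which was not tested. Length differed too, with a median of 400.5 nt under 10 reads and 720 nt above. Of the 40 stand-alone lncRNAs under 200 nt, 32 had under 10 reads, where a difference was not detectable at this depth.

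Ratios were fitted for the 328 lncRNAs with at least 10 reads, on log2(density + 1.549e-04 tag/nt). Among the faintest, this added value can understate a ratio where all 4 libraries had reads. Where a library had 0 reads, it can instead make the ratio large. *IRC1-L*, with 0 reads in replicate 1 of the *exo2*Δ-labelled libraries, had a log2 ratio of −1.68, which a larger added value brought to −0.12. A lncRNA with reads in 1 strain alone can enter only through that strain. Of the 328, 80 were higher and 14 lower in the *exo2*Δ-labelled libraries past a log2 ratio of 1 or −1 and an adjusted p of 0.05 (limma, over all features tested). Of all 8826 features tested, 61.5% were higher and 0.918% lower by the same rule. Both *exo2*Δ-labelled libraries lay above both WT libraries for 203 of the 328 and below both for 40, against 88.5% and 5.88% of all features. Since the choice of lncRNAs left out those with a XUT, nothing is read from the lower share. The median log2 ratio was 0.64 (quartiles 0.16 and 1.20), 0.66 within replicate 1 and 0.67 within replicate 2. It was 1.23 over all features and 1.08 over mRNAs, and 239 of the 328 were below the median mRNA.

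The sign of these ratios rests on the scale. The authors set the libraries to equal sn(o)RNA levels. The paper describes these RNAs as insensitive to Exo2, and mRNAs as accumulating globally in *exo2*Δ. Another scale shifts the log2 ratios downward, by −0.49 for total reads on features, −1.17 for TMM factors and −1.21 for the median of ratios. These shifts are before the pseudocount and are smaller for the faintest lncRNAs. The 80 higher and 14 lower became 44 and 27, 16 and 64, and 14 and 73 on these scales, and the median log2 ratio turned negative on the last 2 of them, at −0.51 and −0.55. TMM factors and the median of ratios center the ratios over features, and with them the median over all features was 0.06 and 0.02. A global rise in the *exo2*Δ-labelled libraries would therefore not show on these 2 scales. The distance between the lncRNAs' median and that of all features was −0.59 on the authors' scale and −0.59, −0.58 and −0.58 on the others.

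**Figure D2:**
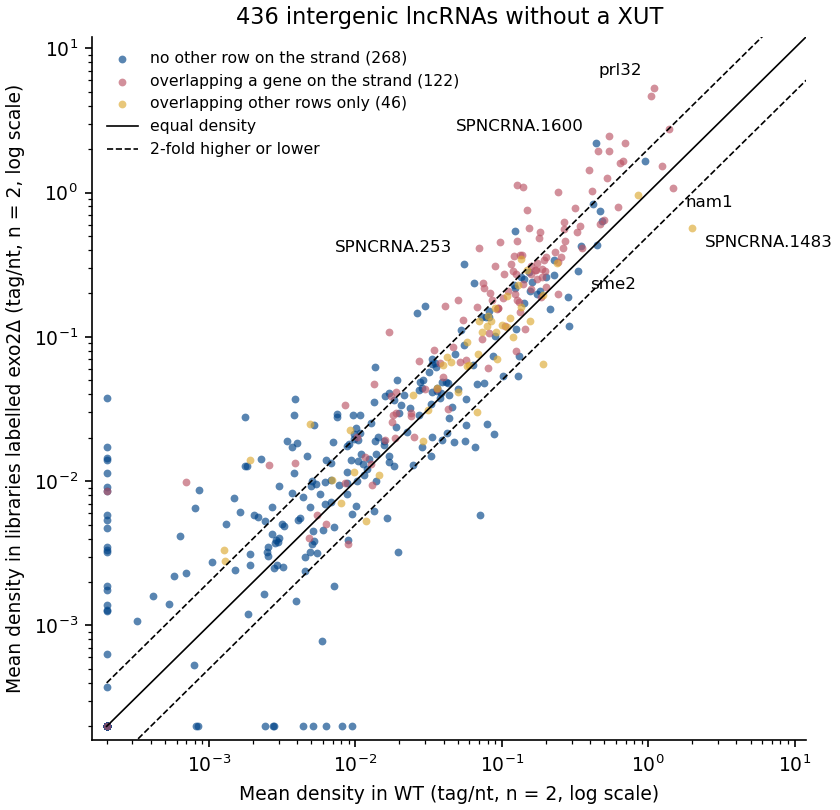
Mean density (tag/nt, n = 2, log scales) of the 436 lncRNAs in WT (x axis) and in the *exo2*Δ-labelled libraries (y axis), coloured by overlap on the same strand, with densities of 0 drawn at the lower edge. The solid line marks equal density and the dashed lines a 2-fold difference. *prl32* is above the upper dashed line and SPNCRNA.1483 below the lower one.

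The ratios differed with what else lay on the strand. Of the 117 lncRNAs that overlap a gene and had at least 10 reads, 48 were past the threshold upward and 0 downward, with a median log2 ratio of 0.81. The 169 stand-alone lncRNAs had a median of 0.53, with 29 upward and 11 downward, and the 42 that overlap other features only had one of 0.37, with 3 in each direction. Within the stand-alone set, the 29 opposite a XUT had a median of 0.88 (8 upward, 1 downward) and the 140 others one of 0.39 (21 upward, 10 downward). None of these differences between sets was tested. Of all features tested, 61.5% were past the threshold upward and 0.918% downward. For comparison, annotated lncRNAs that are antisense to a gene, carry no XUT and overlap nothing on their strand had a median of 0.49 over 323 tested, close to that of the stand-alone intergenic lncRNAs. Intergenic lncRNAs with a XUT on their strand, which were selected on this ratio, had a median of 1.57 over 144.

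**Figure D3:**
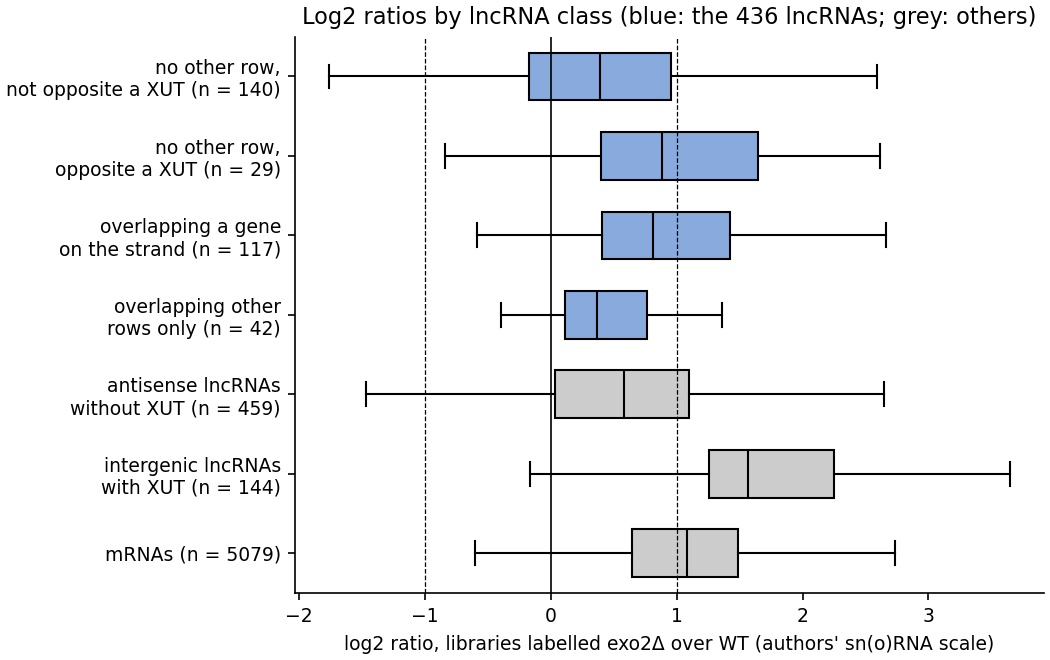
Log2 ratios between the *exo2*Δ-labelled libraries and WT on the authors' sn(o)RNA scale, for the tested lncRNAs of each class (blue), for 2 other lncRNA classes and for mRNAs (grey). Lines in the boxes are medians, boxes the quartiles and whiskers reach up to 1.5 interquartile ranges. The 140 stand-alone lncRNAs not opposite a XUT have a median of 0.39 and the mRNAs one of 1.08.

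Depth limited the stand-alone set, in which 40 lncRNAs had a mean of at least 50 reads. In 28 of these, both *exo2*Δ-labelled libraries lay above both WT libraries, in 7 below, and in 5 the groups overlapped. The shares over all features tested were 88.5% above and 5.88% below. Of the 29 stand-alone lncRNAs past the threshold upward, 23 had fewer reads than that, and leaving out WT replicate 2 raised the count from 29 to 45.

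SPNCRNA.1600 (chrII:3460382-3461190, − strand), annotated as a possible alternative UTR, had 396 and 417 reads in the WT pair and 1443 and 1608 in the *exo2*Δ-labelled libraries. Its densities were 0.413 and 0.465, and 2.09 and 2.28 tag/nt, a log2 ratio of 2.32 (standard error 0.09). It ends 1 nt before *dcd1* on the same strand, whose log2 ratio was 0.77 (standard error 0.11), and starts 82 nt from *csi1* on the other strand, with one of 0.57 (standard error 0.13). Neither gene passed the threshold. SPNCRNA.253 (chrI:4787154-4787928, − strand) had 58 and 41 reads in the WT pair and 216 and 210 in the *exo2*Δ-labelled pair, a log2 ratio of 2.53 (standard error 0.17). Its closest gene downstream, *pvg5*, had one of 1.82 (adjusted p = 9.146e-06, limma). SPNCRNA.218 (chrI:3165556-3166062, + strand) had 75 and 68, and 232 and 238 reads, a log2 ratio of 2.13 (standard error 0.10). Here the neighbour, *tif211*, which encodes the alpha subunit of translation initiation factor eIF2, had one of 0.43 and did not pass the threshold. SPNCRNA.995 (chrI:4531036-4532486, − strand), 5 nt before SPAC27D7.11c, had 122 and 92, and 299 and 291 reads, with a log2 ratio of 1.89 (standard error 0.16). SPNCRNA.1600 lies opposite XUT1196 and SPNCRNA.995 opposite XUT1559, while SPNCRNA.253 and SPNCRNA.218 lie opposite no XUT. On the authors' scale, these 4 lncRNAs kept log2 ratios above 1 whichever library was left out, and their groups did not overlap. With TMM factors, SPNCRNA.253 and SPNCRNA.1600 had 1.37 and 1.15, and SPNCRNA.218 and SPNCRNA.995 had 0.96 and 0.72, short of a 2-fold difference.

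SPNCRNA.863 and SPNCRNA.810 passed it by less, with log2 ratios of 1.03 and 1.08. SPNCRNA.863 (chrI:2939138-2940765) had 618 and 925 reads in the WT pair and 1147 and 1179 in the *exo2*Δ-labelled pair, and 45.2% of its 50 nt stretches occur once in the genome. Without WT replicate 1, the ratios of SPNCRNA.863 and SPNCRNA.810 were 0.69 and 0.92, under the threshold, and that of SPNCRNA.810 was 0.91 without replicate 1 of the *exo2*Δ-labelled libraries. SPNCRNA.1605 and SPNCRNA.1014, with log2 ratios of 0.96 and 0.94, did not pass. SPNCRNA.863 lies opposite XUT1456 and SPNCRNA.1605 opposite XUT0384, while SPNCRNA.810 and SPNCRNA.1014 lie opposite no XUT. All 4 were lower in the *exo2*Δ-labelled libraries with TMM factors.

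Some stand-alone lncRNAs went the other way. SPNCRNA.767 (chrI:1874245-1875080, − strand) had 193 and 349 reads in the WT pair and 77 and 95 in the *exo2*Δ-labelled libraries. Its densities were 0.195 and 0.376, and 0.108 and 0.130 tag/nt, a log2 ratio of −1.19 (standard error 0.29). WT replicate 2 was the highest of the 4, and without it the ratio was −0.72 and short of the threshold. It was not past it without replicate 1 of the *exo2*Δ-labelled libraries either, at −1.06. SPNCRNA.1130 (chrIII:319210-319876, − strand) was steadier, with 102 and 99 reads in the WT pair and 41 and 44 in the *exo2*Δ-labelled pair, with −0.83 for the log2 ratio (standard error 0.15). SPNCRNA.1562 (chrII:2901347-2902607) had 76 and 89, and 44 and 37 reads (log2 ratio −0.61). SPNCRNA.1666 (chrII:4088146-4088647) had 179 and 150, and 81 and 83 reads (log2 ratio −0.59). In all 4 the groups were apart, and the last 3 were short of a 2-fold difference on the authors' scale. SPNCRNA.1175, SPNCRNA.1305 and SPNCRNA.1125 had log2 ratios of −0.52, −0.50 and −0.47, also with groups apart. The eighth smallest ratio, that of SPNCRNA.1073, was 0.17. None of the lncRNAs with the smallest ratios lay opposite a XUT.

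**Figure D4:**
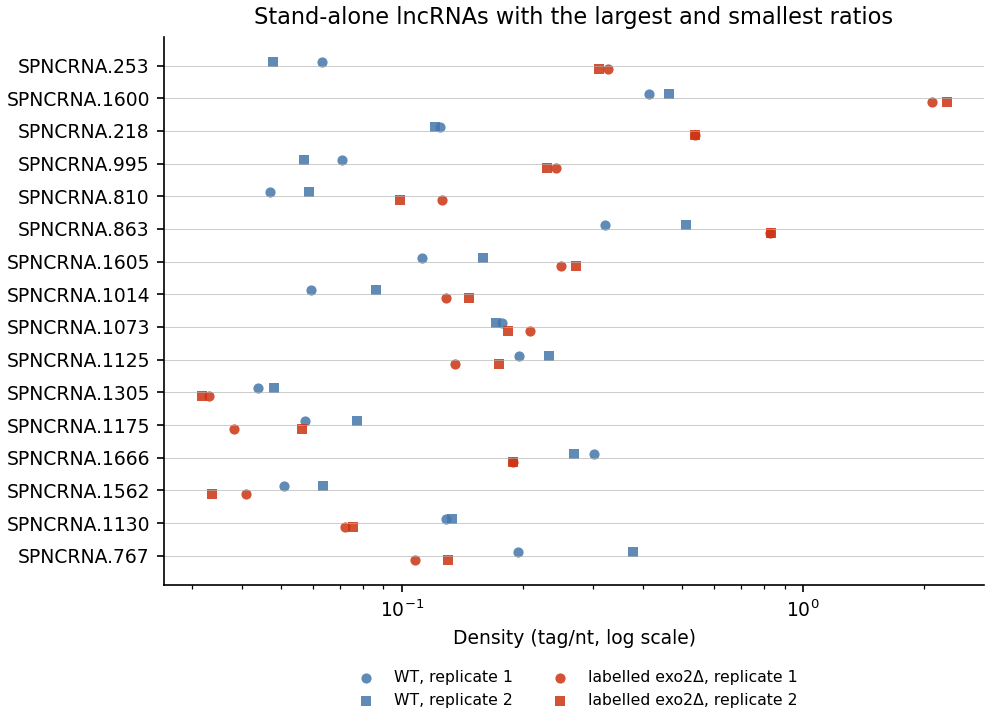
Density (tag/nt, log scale) in each of the 4 libraries for the 16 stand-alone lncRNAs with the largest and smallest log2 ratios among those with a mean of at least 50 reads and groups that do not overlap. Circles are replicate 1 and squares replicate 2. SPNCRNA.253, SPNCRNA.1600, SPNCRNA.218 and SPNCRNA.995 have the widest gaps upward, and SPNCRNA.767 has the widest downward on the authors' scale.

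Of the 14 lncRNAs past the threshold downward, 11 were stand-alone and 11 had a mean under 50 reads. SPNCRNA.855 had 50 and 31 reads in the WT pair and 8 and 8 in the *exo2*Δ-labelled libraries. SPNCRNA.664 had 63 and 58, and 22 and 16 reads, and SPNCRNA.423, annotated as a small RNA of stationary phase, had 16 and 16, and 0 and 2. They were named after their values were seen, as examples of groups that do not overlap. At the other end, SPNCRNA.282 (0 and 0 reads in WT, 22 and 8 in the *exo2*Δ-labelled pair) and SPNCRNA.383 (0 and 0, 8 and 5), chosen in the same way, had no WT read. With 3 reads put in place of 0 in each WT library, the mean densities of the *exo2*Δ-labelled pair were 6.68-fold and 2.89-fold those of WT. These folds make no allowance for the error of so few reads. Both lncRNAs passed the read filter only through the *exo2*Δ-labelled pair, so nothing is read from them.

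The 5 lncRNAs with the highest WT density all shared their strand with another feature. SPNCRNA.1483 (chrII:2044062-2045213, + strand), the primary transcript of a small nucleolar RNA, had 2625 and 2628 reads in the WT pair and 584 and 543 in the *exo2*Δ-labelled libraries. Its densities were 1.92 and 2.06, and 0.595 and 0.540 tag/nt, a log2 ratio of −1.81 (standard error 0.08). The snoRNA within it, SPSNORNA.25, had 1109 and 1111, and 233 and 234 reads, and a log2 ratio of −1.84 (standard error 0.06), while the median over the 58 sn(o)RNAs tested, the class on which the libraries were scaled, was 0.03. *nam1* (SPNCRNA.1459, chrII:1742555-1744043, − strand) had 2639 and 2441, and 1304 and 1445 reads, with a log2 ratio of −0.48 (standard error 0.07). Only 5.10% of its length lies within *mlo3*, an mRNA export factor gene with a log2 ratio of −0.08, and the WT libraries were both above the *exo2*Δ-labelled pair. SPNCRNA.511 had densities of 1.47 and 1.32, and 2.69 and 2.85 tag/nt, and overlaps *mpg1*, which makes GDP-mannose for the cell wall, over 0.978% of its length. SPNCRNA.1392 had 1.29 and 1.18, and 1.57 and 1.49 tag/nt. *prl32* (SPNCRNA.32, chrIII:1702505-1702934) had 552 and 532, and 1865 and 2065 reads, a log2 ratio of 2.27 (standard error 0.07), and SPCC417.15, which covers 78.6% of it, had one of 2.34. At the WT limit of 2 tag/nt, the nearest lncRNAs inside were SPNCRNA.1483, *nam1* and SPNCRNA.511, with WT means of 1.99, 1.49 and 1.40 tag/nt. The nearest outside were SPNCRNA.1259, SPNCRNA.133 and SPNCRNA.1110, with 4.17, 4.37 and 4.59 tag/nt, so that no lncRNA lay close above the limit.

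Of the 33 rows with a gene name, 27 had at least 10 reads. In 19 of these both *exo2*Δ-labelled libraries lay above both WT libraries, in 3 below, and in 5 the groups overlapped. Past the threshold were 8 upward and 0 downward. Over all features tested, 88.5% lay above both and 5.88% below both, with 61.5% past the threshold upward and 0.918% downward. *sme2* (SPNCRNA.103, listed at chrII:339346-340012, the 3′ part of the RefSeq locus of 1562 nt) had 243 and 263 reads in the WT pair and 192 and 138 in the *exo2*Δ-labelled pair, a log2 ratio of −0.22 (standard error 0.18). Its groups overlapped, with densities of 0.308 and 0.356 tag/nt in the WT pair and 0.338 and 0.237 tag/nt in the *exo2*Δ-labelled libraries. On the authors' scale, none of the 4 lncRNAs printed for TNAAAC was past the threshold in either direction. With TMM factors, the log2 ratios were −1.64 for *nam1*, −1.39 for *sme2*, −0.50 for *nam5* and 0.39 for *nam6*. No library had more than 20 reads on *nam5* or 6 on *nam6*, so that little could be detected for these.

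Many of the other names begin with prl, for polyadenylated RNAs without a long open reading frame. In RefSeq, 23 of the 436 are named prl or described as poly(A)-bearing. The 20 with at least 10 reads had a median log2 ratio of 0.85, with 7 upward and 0 downward, against 61.5% and 0.918% of all features tested. Of the 8 named lncRNAs past the threshold, 6 overlap a gene on their strand. *prl28* (SPNCRNA.28), wholly within SPAC29B12.14c, had 260 and 278, and 711 and 752 reads. Its log2 ratio was 1.85 and that of the gene 2.097. *fbp1-ot3* (SPNCRNA.1325, chrII:199409-200559, − strand), one of the RNAs transcribed upstream of the glucose-repressed gene *fbp1*, had 52 and 55, and 158 and 167 reads, a log2 ratio of 2.01 (standard error 0.16). It shares 5.73% of its length with *fbp1*, which had one of 2.21, and *fbp1-ot2* next to it had 1 read in all. *prl52* and *prl45*, each wholly within an mRNA, had log2 ratios of 1.52 and 1.27. *prl57*, also within one, had 1.22 from 10 and 5, and 12 and 13 reads, and it was past the threshold only when WT replicate 1, or no library, was left out. *prl2* (3 and 2, 11 and 8 reads) overlaps another ncRNA, and *prl46* (1 and 3, 5 and 9 reads) is a protein-coding locus in ASM294v3 and was not past the threshold without replicate 2 of the *exo2*Δ-labelled libraries. Another protein-coding locus there is *smp2* (4 and 3, 4 and 2 reads). The stand-alone *prl59* had 385 and 349, and 442 and 527 reads, a log2 ratio of 0.81 (standard error 0.09). Its groups were apart but within 2-fold. For *prl62*, wholly within *msi2*, the lncRNA and the mRNA differed in direction on the authors' scale, with log2 ratios of −0.40 and 1.99.

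**Figure D5:**
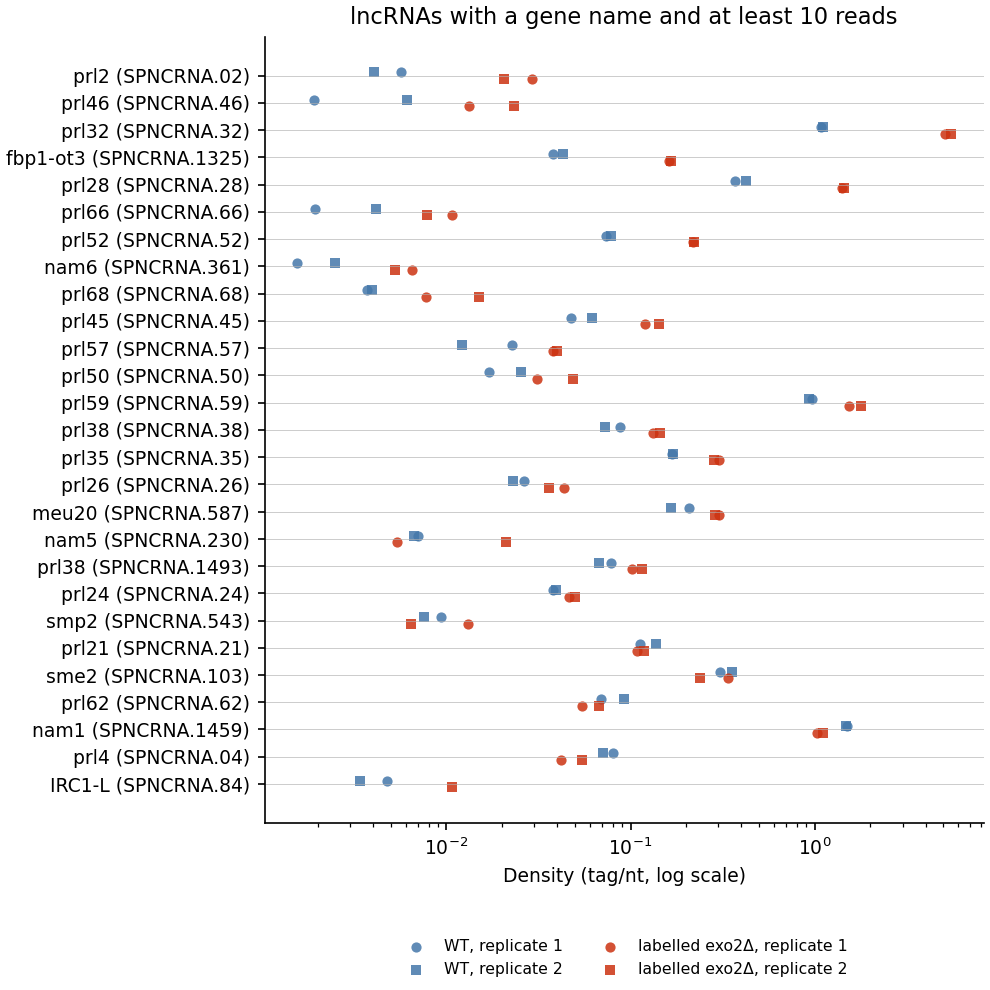
Density (tag/nt, log scale) in each library for the 27 rows with a gene name and at least 10 reads, ordered by log2 ratio. Circles are replicate 1 and squares replicate 2, and the 1 density of 0, that of *IRC1-L* in replicate 1 of the *exo2*Δ-labelled libraries, is not drawn. The groups of *sme2*, *nam5*, *prl21*, *smp2* and *IRC1-L* overlap.

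Between the 122 lncRNAs that overlap a gene on their strand and those genes, the ratios followed each other in part. Over the 115 pairs with both tested, Pearson's r was 0.53 and Spearman's rho 0.57 between the log2 ratios, a description only, since the pairs may share reads and 31 of the lncRNAs lie wholly within the gene. The genes had a median log2 ratio of 1.09 against 0.81 for the lncRNAs, and 37 pairs were past the threshold upward on both sides. RefSeq describes 64 of the 436 as a possible UTR, and these had a median log2 ratio of 0.92, with 29 of 64 upward and 0 downward. Of all features tested, 61.5% were past the threshold upward and 0.918% downward. Among all 80 past the threshold upward, 70 were at least 200 nt long and touched no CDS exon on their strand.

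The levels of the genes next to the stand-alone lncRNAs were not used in choosing them. Within 1000 nt, 210 of the 268 had 310 such genes, head to head, downstream on the same strand, or tail to tail. Of the 306 tested, 161 (52.6%) were higher and 2 lower in the *exo2*Δ-labelled libraries, against 54.8% and 0.276% of all mRNAs, and their median log2 ratio was 1.04 against 1.08. Genes head to head with the lncRNA had 64 of 137 higher (46.7%), those downstream on its strand 80 of 138 (58.0%), and those tail to tail 25 of 44 (56.8%). Over 227 pairs with both tested, Pearson's r between the log2 ratios of lncRNA and gene was 0.06 and Spearman's rho 0.00, across pairs that share libraries and some genes. In 152 of the 227 pairs the lncRNA had the lower ratio. Since the choice of lncRNAs left out those with a XUT, nothing is read from this count. The same choice narrows the range of lncRNA ratios that enter the correlation.

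Genes were also counted next to the 16 stand-alone lncRNAs of the largest and smallest ratios, against 54.8% of all mRNAs past the threshold upward. Of the 14 genes tested next to the 8 with the smallest ratios, of which 1 was itself past the threshold downward, 11 were past it upward, and of the 9 next to the 8 with the largest, 3 were. *met6*, the homoserine O-acetyltransferase of methionine synthesis, ends 39 nt from SPNCRNA.1666 and had a log2 ratio of 2.26 (adjusted p = 2.01e-06, limma). *gma12*, a galactosyltransferase of the Golgi, lies 426 nt downstream of SPNCRNA.1130 and had one of 1.37 (adjusted p = 5.976e-06, limma). Both genes flanking SPNCRNA.767, SPAPB1A10.08 and SPAPB1A10.07c, were past it too, with 1.24 and 1.12. With only 8 lncRNAs a side, and lists chosen by their own ratio, these counts are a description.

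The genes of RNA decay pathways are set beside all mRNAs, of which 54.8% were higher, with a median log2 ratio of 1.08. Of 14 genes of cytoplasmic 5′–3′ decay, 7 were higher and 0 lower, with a median log2 ratio of 1.03, among them *ste13* (1.77), the helicase that works with decapping, and *dcp1* (1.52), a subunit of the decapping enzyme. Of 15 genes of the nuclear exosome and its cofactors, 7 were higher and 0 lower, with a median of 0.99. *red5* (1.76) and *mtl1* (1.47), which bring RNA to the exosome, passed the threshold. *mmi1* (0.52), which encodes the TNAAAC-binding protein, and *rrp6* (0.98) did not. Of 5 genes of nuclear 5′–3′ decay and termination, 1 was higher, *pcf11* (1.12), a termination factor.

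Sequence was read for the 387 lncRNAs whose coordinates are the same in the table and in ASM294v3. Their median GC content was 32.3%, against 36.0% for the antisense lncRNAs without a XUT and 33.1% for the intergenic lncRNAs with one. TNAAAC occurred 2.24 times per kb on the strand of the RNA, against 1.96 and 2.04 in those classes and 1.99 over both strands of the chromosomes. At least 1 was held by 270 (69.8%), against 84.5% and 83.5% in those classes. Over each whole class, the median length was 621.5 nt, against 1152 and 893.5 nt. AATAAA occurred 2.04 times per kb, against 1.54 and 1.67, and 1.40 over the chromosomes, and 5.50% of the TNAAAC matches overlapped one. TATAAA lay within the 100 nt before the annotated start on the strand of the RNA in 36 of 387 (9.30%) and on either strand in 16.0%. Before all annotated ncRNAs with a sequence the shares were 10.2% and 17.7%, before all RefSeq protein-coding genes 11.4% and 18.8%, and 7.52% of all 100 nt windows of the chromosomes held it on a given strand. These are counts of letters, in classes that differ in base composition.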

How the data were processed

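rRNA-depleted total RNA from 2 WT replicates and 2 replicates of the *exo2*Δ strain was made into stranded libraries from 125 ng and sequenced as paired ends of 50 nt, which the authors mapped with TopHat to ASM294v2. The authors deposited a signal for each feature, a tag density in tag/nt normalized on sn(o)RNA levels. For mRNAs, sn(o)RNAs and XUTs, the paper states that it computed tag densities from uniquely mapped reads. It does not state this for the other deposited features, nor how overlapping features were counted. The product of density and length came in steps of 1 read in each library, for 100% of nonzero values (within 0.01 read), which gave the reads, between 46964618 and 51019820 per library on features. Columns with the sums of replicates were not used.

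log2(density + 1.549e-04) was fitted for 8826 features with at least 10 reads in all with limma 3.58.1 (R 4.3.3, moderated variances that follow the mean, Benjamini-Hochberg over all features), which was tested on simulated data. The simulation changed a small share of features, equally up and down and none of them faint. It therefore does not cover a global rise or changes in faint lncRNAs. With 2 libraries per strain, p-values measure the spread between these cultures. The lncRNAs and gene lists were chosen with earlier results of these data known. Named lncRNAs were the 8 largest and 8 smallest ratios among stand-alone ones with a mean of 50 reads and groups apart, the 5 highest in WT, all with a gene name, and the 3 nearest to each side of the WT limit. RefSeq (ASM294v3) matched 398 of 436 by locus tag or synonym, and sequences were read at RefSeq's own coordinates. Identities came from global alignment (Biopython 1.88). Other scales, filters, pseudocounts, voom on the recovered reads, the replicate block, left-out libraries and other limits of the selection were tried.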

Additional observations from a re-analysis of the deposited data

How the results depend on the processing

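The scale changed most. With total reads, TMM factors and the median of ratios, the 80 lncRNAs higher became 44, 16 and 14, the 14 lower became 27, 64 and 73, the 29 stand-alone ones higher became 18, 7 and 7, and the 161 neighbouring mRNAs higher became 84, 21 and 20. The median log2 ratio of the lncRNAs (0.64) became 0.15, −0.51 and −0.55, and that of the stand-alone ones (0.53) 0.038, −0.63 and −0.67, while SPNCRNA.810 turned to −0.084 and −0.12 and SPNCRNA.863 to −0.13 and −0.17 with TMM factors and the median of ratios. At least 50 reads left 12 stand-alone lncRNAs higher with a median of 0.38. A pseudocount of 10 times the smallest density gave medians of 0.56 and 0.37, and excluding any overlap with a gene on the other strand gave 0.65. Leaving out 1 library gave 70 to 100 higher, 10 to 19 lower, 22 to 45 stand-alone higher (45 without WT replicate 2), 154 to 163 neighbours higher, and medians of 0.59 to 0.71 for the lncRNAs and 0.44 to 0.62 for the stand-alone ones. Without 1 library or another, SPNCRNA.511, SPNCRNA.1014, SPNCRNA.1605, *prl50*, *prl66*, *prl68* and *nam5* passed the threshold upward, and *IRC1-L* downward. Without a filter 92 were higher and 16 lower, against 60.2% and 0.948% of all features. Voom on the recovered reads gave 87 and 15, against 62.2% and 0.963%. The labels share replicate numbers, but the deviations of same-numbered libraries correlated at 0.28 over 5447 features and 0.02 over the 328 lncRNAs, in 2 pairs. With the replicate block, 82 lncRNAs were higher and 15 lower, 79 and 14 of them the same, with 31 stand-alone and 160 neighbours higher. The block gave 61.4% of all features higher and 0.963% lower. Intervals from counting are wide under 10 reads, which left 108 lncRNAs without a ratio.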
